A study of Caenorhabditis elegans with 12 samples.

Results

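The effect of losing LIN-54 in a germline without MES-4 is described here from 6 of the 12 arrays of the series, chosen by their genotype labels. The 3 arrays of *lin-54(n3423)*; *mes-4(ok2326)* double mutants were set against the 3 arrays of *mes-4(ok2326)* mutants. Both genotypes lacked zygotic *mes-4*, and only the double mutant also lacked zygotic *lin-54*. The other 6 arrays, 3 of *lin-54(n3423)* and 3 of wild type (N2), entered the statistical model and showed the effect of losing LIN-54 with MES-4 present. All mutants were M+Z−, that is, homozygous hermaphrodites from heterozygous mothers, so that maternal product had been supplied. The study's strain list gives the balancer nT1[qIs51] for both single mutants and does not list the double mutant. According to the study's descriptions of its alleles, *n3423* deletes most of the *lin-54* open reading frame, while *ok2326* removes much of the *mes-4* SET domain and shifts the frame, and a truncated transcript is still made. The study detected no LIN-54 transcript or protein in M+Z− *n3423* adults, and no MES-4 protein by immunostaining in M+Z− *ok2326* germlines. It calls *n3423* a null allele and *ok2326* a likely null. Each sample pooled 50 to 70 germlines that were cut from young adults 24 hr after the L4 stage at 20° and reached from the mitotic tip through late pachytene. Germ cells beyond late pachytene and the spermatheca were therefore outside the dissected stretch, whereas gonadal sheath cells cover part of it. After linear amplification, the RNA was measured on Affymetrix *C. elegans* GeneChips, which read each transcript through sets of short probes.

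LIN-54 is a DNA-binding subunit of DRM, a complex of a retinoblastoma-related protein, an E2F/DP pair and synMuv B proteins that regulates cell cycle and developmental genes. MES-4 is a histone methyltransferase that places methylation of histone H3 at lysine 36 on germline-expressed genes, most of which are autosomal. In the hermaphrodite germline the X chromosomes are kept at low transcript levels, and loss of MES proteins is known to raise X-linked transcripts. Whether loss of a DRM subunit still lowers them when MES-4 is missing is the question that the comparison addresses.

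All values are log2 transcript levels, so that a difference of 1 is a 2-fold change. The 17085 genes tested comprised 2355 X-linked, 14722 autosomal and 8 mitochondrial genes. Array medians lay between 5.81 and 5.93, and among the 6 arrays compared the correlation was 0.989 to 0.995 within a genotype and 0.978 to 0.989 between the genotypes. The 3 replicates per genotype, which the labels call biological, limit the precision. Transcripts of *lin-54* were at 6.81, 6.65 and 6.33 in the double mutant and at 10.77, 10.69 and 10.88 in *mes-4*, a difference of −4.18 (standard error 0.30, q = 3.04e-05, limma with Storey's q). The groups were far apart, and the *lin-54* arrays, with a mean of 6.83, stood beside the double mutant. Transcripts of *mes-4* were at 9.65, 9.27 and 9.49 in the double mutant, against 9.22, 9.01 and 9.05 in *mes-4* and a mean of 9.82 in wild type. This difference of 0.38 passed the threshold (q = 0.0310) but not without *mes-4* replicate 2 or 3 or double-mutant replicate 1 or 3 (q up to 0.117). The place of the probes relative to the *ok2326* deletion was not established, so *mes-4* levels do not check that label.

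At q ≤ 0.05, 915 of all genes tested (5.36%) were down-regulated in double-mutant relative to *mes-4* germlines, and 411 (2.41%) were up-regulated. On the X chromosome, 258 genes (11%) were down-regulated and 16 (0.679%) were up-regulated. On the autosomes, 657 genes (4.46%) were down-regulated and 395 (2.68%) were up-regulated. Each autosome had 3.59% (V) to 4.98% (I) of its genes down and 1.25% (V) to 4.01% (I) up. Among genes changed by more than 2-fold, 98 X-linked genes fell and 0 rose, whereas 118 autosomal genes fell and 59 rose. The median change of the down-regulated genes was −0.87 on the X and −0.65 on the autosomes, beside a median of 0.05 over all genes tested. The arrays of the double mutant and of *mes-4* did not overlap for 251 of the 258 X-linked genes that fell, 655 of the 657 autosomal genes that fell and 394 of the 395 autosomal genes that rose, against 4157 of all genes tested. When each array was centred on its autosomal median, 261 autosomal genes rose and 704 fell, so that up-regulated genes made up 27% of the autosomal calls in place of 37.5%. The X-linked decreases numbered 120 without double-mutant replicate 1, 126 without double-mutant replicate 3 and 156 without *mes-4* replicate 3. The 16 X-linked increases numbered 5 or 7 without *mes-4* replicate 1 or 3, and 8 or 4 without double-mutant replicate 1 or 3. Without double-mutant replicate 1 or 3, the autosomal decreases numbered 333 or 367 and the autosomal increases 189 or 176, and without *mes-4* replicate 1 the autosomal increases numbered 224.

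**Figure D1:**
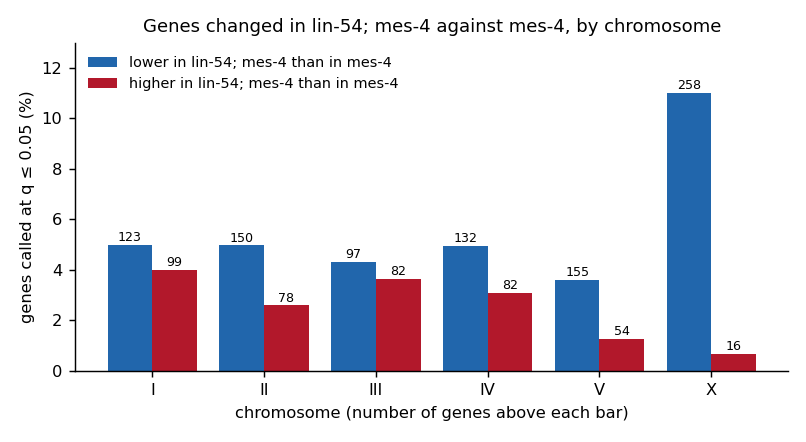
Percentage of the measured genes of each chromosome (horizontal axis) that were called at q ≤ 0.05 in the double mutant relative to *mes-4* (vertical axis), with the number of genes above each bar and decreases left of increases. The X had 11% of its genes down and 0.679% up, while no autosome had more than 4.98% down.

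The largest X-linked decreases were in *tbh-1*, *glit-1*, *hsp-3*, *pdi-2*, *try-14* and *srdf-2.2*. Transcripts of *tbh-1*, which encodes the tyramine beta-hydroxylase that makes octopamine and is used by neurons and gonadal sheath cells, were at 7.30, 7.83 and 7.21 in the double mutant and at 9.87, 9.99 and 10.02 in *mes-4* (−2.52, standard error 0.34, q = 0.00157). Every double-mutant array lay more than 2 log2 units below every *mes-4* array. Transcripts of *hsp-3*, the gene of a BiP chaperone in the endoplasmic reticulum (ER), were at 7.76, 9.08 and 8.15 in the double mutant and at 10.27, 10.58 and 11.15 in *mes-4* (−2.33, standard error 0.33, q = 0.00191). Those of the protein disulfide isomerase gene *pdi-2* were at 7.54, 7.66 and 7.45 in the double mutant and at 9.71, 9.43 and 9.96 in *mes-4* (−2.15, standard error 0.20, q = 0.000191). In both genes all double-mutant arrays were lower, and double-mutant replicate 2 was the highest of its group. Transcripts of *glit-1*, related to the junction protein gliotactin, were at 6.13, 6.11 and 6.54 in the double mutant and at 8.13, 8.25 and 9.44 in *mes-4*, where replicate 3 was high (−2.35, q = 0.00174). The next in size were *try-14*, named for a trypsin-like protease (−1.90, q = 0.0231), and *srdf-2.2* (−1.85, q = 0.00138). The call of *try-14* ended without *mes-4* replicate 2 or 3 or double-mutant replicate 1 or 3 (q up to 0.0904), and those of the other 5 genes held in every leave-one-out fit.

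The X-linked increases were small. Transcripts of *cab-1* were at 5.66, 5.91 and 6.09 in the double mutant and at 5.22, 5.29 and 5.19 in *mes-4* (0.65, q = 0.00605), without overlap. These levels lay around or below the array medians of 5.81 to 5.93, and the other *cab-1* probe set differed by 0.33. Transcripts of *immt-1*, which encodes a mitochondrial inner-membrane organizer, differed by 0.79 (q = 0.0447), a call that ended under 13 of 20 alternatives. The others among the 6 largest increases without overlap of the arrays were *C10A4.3* (0.74), *ZK678.3* (0.57), *C52B11.4* (0.48) and *spp-13* (0.47). Their q values were 0.0145 to 0.0312, and each call ended when double-mutant replicate 3 was left out (q up to 0.120 in leave-one-out fits).

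**Figure D2:**
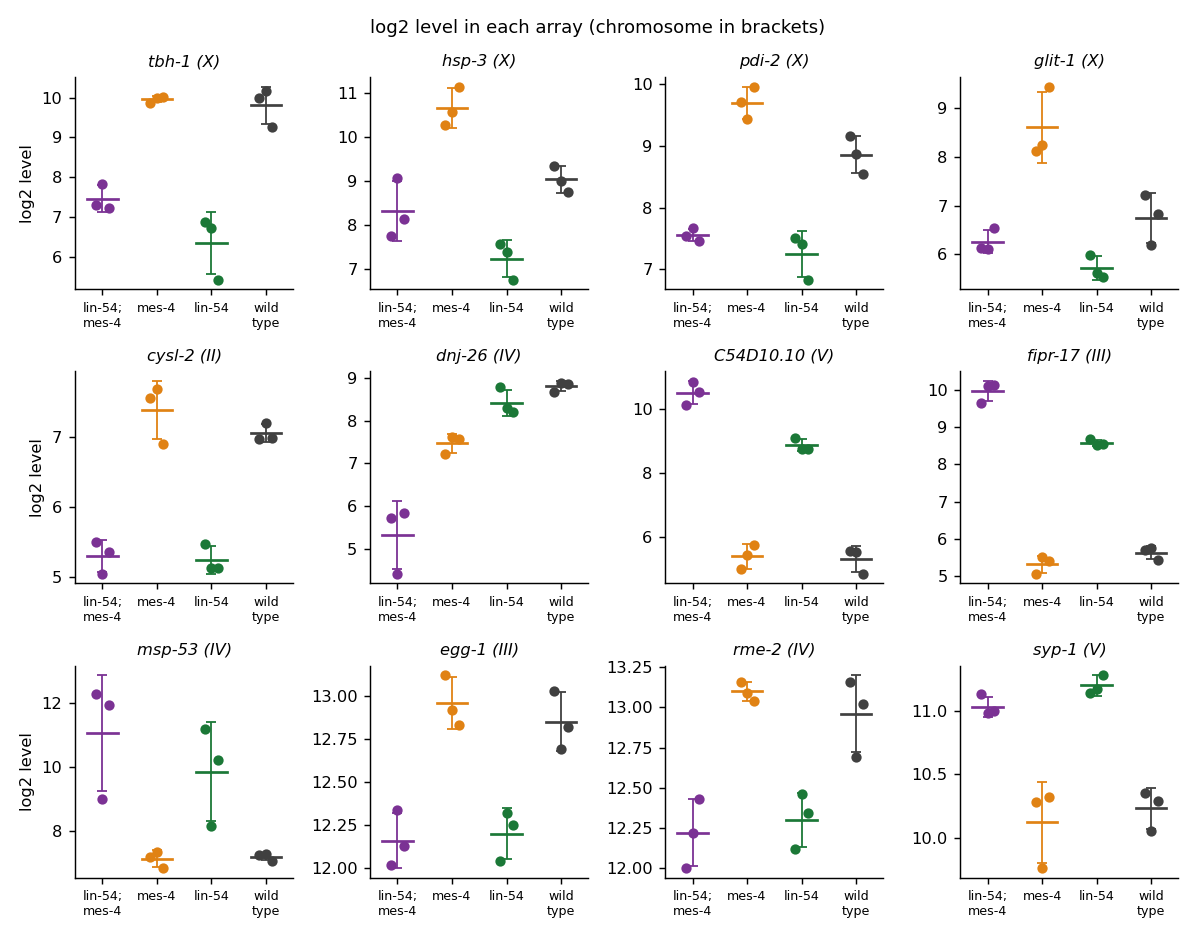
log2 transcript level (vertical axes, which differ between panels and do not start at 0) of 12 genes in each of 3 arrays per genotype (points), with the mean (line) and SD (bar), in the order double mutant, *mes-4*, *lin-54*, wild type. *pdi-2* lay at 7.45 to 7.66 in the double mutant and at 9.43 to 9.96 in *mes-4*, and *C54D10.10* at 10.12 to 10.84 in the double mutant and at 5.0 to 5.77 in *mes-4*.

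On the autosomes, the largest changes were increases. Transcripts of *C54D10.10* were at 10.12, 10.84 and 10.53 in the double mutant and at 5.0, 5.44 and 5.77 in *mes-4*, a difference of 5.10 (standard error 0.24, q = 8.79e-07). Those of *fipr-17*, named as a relative of fungus-induced peptides, were at 9.65, 10.09 and 10.13 in the double mutant and at 5.07, 5.51 and 5.42 in *mes-4* (4.62, standard error 0.15, q = 2.93e-08). Neither gene showed any overlap between the groups, and both were also high in *lin-54* (means of 8.87 and 8.58) and low in wild type (means of 5.33 and 5.64). The next 4 largest increases, of 3.90 to 4.07, were all in genes of the major sperm protein family. After *lin-54* itself, the largest autosomal decreases were in *haf-6*, which encodes an ABC half-transporter, *F35H10.10* (−2.18, and −0.74 in its other probe set), *dnj-26*, which encodes a J-domain protein, *cpl-1*, which encodes a cathepsin L protease, and *cysl-2*, a cysteine synthase-like gene. Transcripts of *haf-6* were at 6.11, 5.53 and 5.96 in the double mutant and at 8.43, 8.43 and 8.03 in *mes-4* (−2.43, q = 0.000347). Those of *dnj-26* were at 5.71, 4.41 and 5.83 in the double mutant and at 7.21, 7.61 and 7.58 in *mes-4* (−2.15, q = 0.00187). Means of *dnj-26* were 8.42 in *lin-54* and 8.81 in wild type, so that the double mutant lay below all 3 other genotypes. Those of *cpl-1* were at 8.47, 7.65 and 8.11 in the double mutant and at 11.29, 10.15 and 9.14 in *mes-4*, and its call (−2.12, q = 0.0238) ended without *mes-4* replicate 1 or 2 or double-mutant replicate 2 or 3 (q up to 0.0695). The other *cpl-1* probe set differed by −0.41. The *mes-4* arrays of *cpl-1* followed the order of the summed linear level of 26 intestine genes, which was 25400, 7910 and 3520 in *mes-4* and 4310, 3250 and 4070 in the double mutant. The part of intestinal RNA in the *cpl-1* difference was not tested.

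X-linked decreases were more frequent among genes with higher transcript levels. In the quartile of genes with the highest mean level over the 12 arrays, 38 of 155 X-linked genes fell (24.5%), against 6.67% of autosomal genes, and the median change was −0.39 for X-linked and 0.02 for autosomal genes. In the next quartile, 19.4% of X-linked and 7.66% of autosomal genes fell, and in the lowest quartile 1.64% of X-linked and 0.573% of autosomal genes fell. Increases in the top quartile took in 1.94% of X-linked and 5.94% of autosomal genes. Over all genes, the median X-linked level minus the median autosomal level was −0.328, −0.292 and −0.312 in the double mutant and −0.255, −0.232 and −0.232 in *mes-4*. All double-mutant arrays lay below all *mes-4* arrays, a difference of −0.071 (SD 0.018 in the double mutant and 0.013 in *mes-4*, n = 3 each), and the two-sided exact permutation p of 0.1 is the smallest that 3 against 3 arrays allow. The X-linked median alone was 5.536, 5.584 and 5.520 in the double mutant and 5.558, 5.639 and 5.520 in *mes-4*, and the arrays overlapped. The autosomal median was 5.864, 5.876 and 5.832 in the double mutant and 5.812, 5.871 and 5.752 in *mes-4*, also with overlap. The difference is therefore not a fall of the X-linked median by itself. The X-linked minus autosomal measure was −0.369 to −0.394 in *lin-54* and −0.316 to −0.351 in wild type. With probe sets above the median level only, the difference between the double mutant and *mes-4* was −0.199, where the arrays overlapped (exact permutation p = 0.3), and without probe sets shared between transcripts it was −0.037.

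The gene lists used from here on were written with earlier results of these data known, so their shares are a description. Transcripts of a family of sperm genes rose in the double mutant. Of 23 genes of the major sperm protein (MSP) family, which encode the cytoskeletal and signalling protein of nematode sperm, 20 rose (87%, against 2.41% of all genes tested) and 0 fell, by 0.95 to 4.07 (limma, all 23 positive at an unadjusted p under 0.05). The median change was 2.92, beside 0.05 over all genes. Their median level was 10.15, 7.70 and 9.52 in the double mutant and 6.37, 6.65 and 6.28 in *mes-4*. The groups did not overlap, and double-mutant replicate 2 lay closest to *mes-4*. In *lin-54*, with 10.12, 7.13 and 8.82, replicate 2 was likewise the lowest, while wild type held 6.43, 6.52 and 6.35. Transcripts of *msp-53* were at 12.26, 9.0 and 11.93 in the double mutant and at 7.2, 7.36 and 6.85 in *mes-4* (3.93, standard error 0.81, q = 0.0129), and those of *msp-31* differed by 4.07 (standard error 0.91, q = 0.0179). Increases numbered 12, 13 and 7 without *mes-4* replicate 1, 2 and 3, and 2 without double-mutant replicate 1 or 3. MSP genes are near-identical copies: only 1 of the 23 had a probe set of its own, so the members cannot be told apart and are not separate measurements. That gene, *msp-32*, differed by 0.95 in its shared probe set and by 0.20 in the other. It was not called when shared probe sets were left out. Of 27 other sperm genes, 6 rose (22.2%) and 1 fell (3.7%). The risers included *msd-2* (1.82) and *msd-4* (1.67), named for the MSP domain, *ssp-10* (1.01), a small sperm protein gene, and *gsp-3* (0.71), which encodes a sperm protein phosphatase. The 6 increases numbered 2 and 1 without *mes-4* replicate 1 and 3, and 0 and 2 without double-mutant replicate 1 and 3. With only the 6 arrays compared in the model, 3 rose. Of the 16 members with a probe set not shared between transcripts, 1 rose. The median level of the 27 genes was 5.95, 5.77 and 5.72 in the double mutant and 5.73, 5.91 and 5.65 in *mes-4*, and the arrays overlapped. Body wall muscle markers, whose arrays ran in the same order as those of the MSP genes within both genotypes, had a summed linear level of 5550, 2970 and 5190 in the double mutant and 3070, 4000 and 2870 in *mes-4*. None of the 22 was called (2 lower and 3 higher at an unadjusted p under 0.05, and 0 called with Benjamini-Hochberg adjustment). The part of RNA from sperm or other tissue in the MSP increase was not tested, and more cells of a type and more RNA per cell cannot be told apart in pooled tissue.

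Oocyte transcripts fell. Of 26 oocyte and eggshell genes, none of them X-linked, 17 were down-regulated (65.4%, against 5.36% of all genes tested) and 0 up-regulated (limma, 23 lower and 0 higher at an unadjusted p under 0.05, and 11 called with Benjamini-Hochberg adjustment). The median change was −0.46, and the double mutant and *mes-4* did not overlap for any of the 17, nor for 906 of all 915 genes that fell. Their median level was 11.48, 11.78 and 11.61 in the double mutant and 12, 12.02 and 12.07 in *mes-4*. Again the double mutant lay below every *mes-4* array, with replicate 2 the closest, and the *lin-54* arrays, at 11.47, 11.69 and 11.51, lay below the wild-type arrays, at 11.95, 11.84 and 11.93. Transcripts of *rme-2*, which encodes the yolk receptor of oocytes, were at 12, 12.22 and 12.43 in the double mutant and at 13.16, 13.09 and 13.04 in *mes-4* (−0.88, standard error 0.14, q = 0.00314). Those of *egg-1*, which encodes an oocyte surface protein needed for fertilization, were at 12.02, 12.34 and 12.13 in the double mutant and at 13.12, 12.92 and 12.83 in *mes-4* (−0.79, standard error 0.12, q = 0.00296). Its relative *egg-2* fell by 0.81. Eggshell genes that fell were *cbd-1* (−0.53), *perm-2* (−1.09), the chitin synthase gene *chs-1* (−0.44), *gna-2* (−0.45), *cpg-1* (−0.35) and *cpg-2* (−0.33). RNA-binding regulators of oocytes and embryos that fell included *puf-5* (−0.73), *puf-11* (−0.69), *mex-1* (−0.58), *oma-2* (−0.48), *spn-4* (−0.47) and *pos-1* (−0.31). The 17 calls numbered 11 without wild-type replicate 3 or *mes-4* replicate 1, 10 without *mes-4* replicate 3 or double-mutant replicate 3, and 8 without double-mutant replicate 1. With only the 6 arrays compared in the model there were 11 calls, and of the 16 members with a probe set not shared between transcripts, 9 fell.

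**Figure D3:**
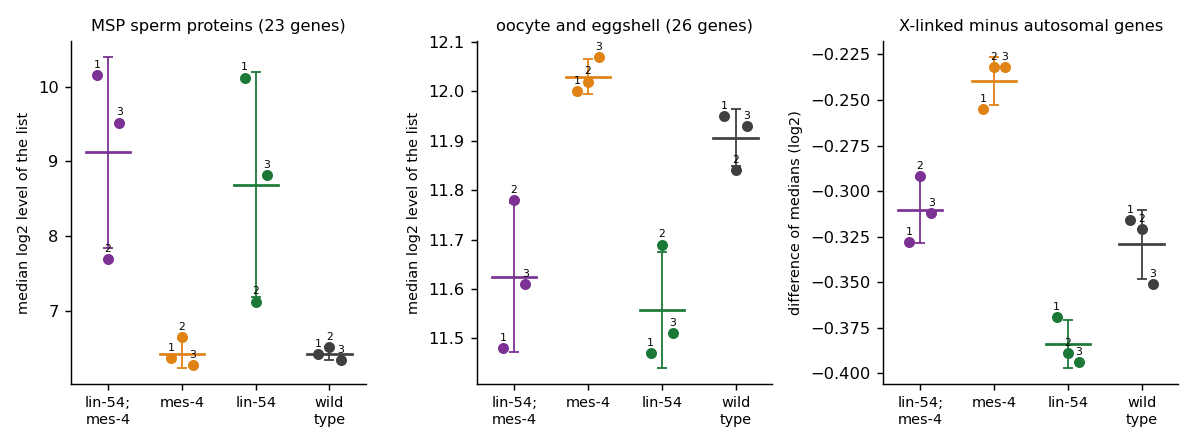
Median log2 level of 23 MSP genes (left) and of 26 oocyte and eggshell genes (middle), and the median X-linked minus the median autosomal log2 level (right), in each array (points, numbered by replicate) with the mean (line) and SD (bar) of each genotype. Vertical axes do not start at 0. The double mutant lay above *mes-4* for MSP genes and below it in the other panels, with no overlap.

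Of 36 genes of protein folding and entry into the secretory pathway, 8 of them X-linked, 11 were down-regulated (30.6%, against 5.36% of all genes tested), 2 were up-regulated (5.56%, against 2.41%) and 23 were not called, with a median change of −0.21. Of the 11 that fell, 4 are X-linked, where 11% of all genes fell. The X-linked members that fell were *hsp-3* and *pdi-2*, described above, the protein disulfide isomerase gene *pdi-6* (−1.08) and the J-domain gene *dnj-7* (−0.99). The autosomal members that fell encode the other BiP chaperone (*hsp-4*, −0.76), the unfolded protein response factor XBP-1 (*xbp-1*, −0.66), the ER form of Hsp90 (*enpl-1*, −0.60), calreticulin (*crt-1*, −0.58), derlin (*cup-2*, −0.48), the translocon subunit Sec61 alpha (*sec-61.A*, −0.44) and a protein disulfide isomerase (*pdi-3*, −0.42). Transcripts of *hsp-4* were at 12.02, 11.77 and 12.06 in the double mutant and at 12.72, 12.76 and 12.65 in *mes-4* (q = 0.00308). Its arrays did not overlap, and the same held for all 11 members that fell, as for 906 of all 915 genes that fell. The 2 that rose were *dnj-27* (0.97), a J-domain gene, and *ire-1* (0.33), which encodes the unfolded protein response sensor. Only 20 of the 36 genes had a probe set not shared between transcripts, and 3 of those fell.

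Of 23 dosage compensation and sex determination genes, 4 fell (17.4%, against 5.36% of all genes tested) and 1 rose (4.35%, against 2.41%), with a median change of −0.16. Those that fell were *sdc-1*, *sdc-2* and *sdc-3*, which encode factors that bring the dosage compensation complex to the X, and *xol-1*, the switch gene of sex determination (−1.05, and −0.25 in its other probe set). All but *sdc-3* are X-linked, and 11% of all X-linked genes fell. Transcripts of *sdc-1* were at 5.93, 6.29 and 6.30 in the double mutant and at 7.23, 7.32 and 7.97 in *mes-4* (−1.33, standard error 0.22, q = 0.00404). Its double-mutant mean lay close to that of wild type, at 5.91. Transcripts of *fog-3*, a Tob-family gene needed for sperm fate, were at 8.96, 7.76 and 8.03 in the double mutant and at 6.80, 7.15 and 6.68 in *mes-4* (1.38, q = 0.0191). The groups did not overlap, but the call ended without *mes-4* replicate 1 or 3 or double-mutant replicate 1 (q up to 0.0630). The 4 decreases numbered 2 when any 1 of the wild-type or double-mutant replicates, *lin-54* replicate 2 or *mes-4* replicate 1 or 3 was left out. Of 25 other synMuv and heterochromatin factors, 4 fell (16%) and 0 rose (limma, 7 lower and 0 higher at an unadjusted p under 0.05, and 4 called with Benjamini-Hochberg adjustment). They were the X-linked genes *hpl-1* (−1.04), which encodes an HP1 protein, *lin-15B* (−0.67) and *jmjd-3.1* (−0.60), which encodes a demethylase of histone H3 lysine 27, and the autosomal synMuv B gene *lin-36* (−0.41). Transcripts of *lin-15B* were at 8.02, 8.14 and 8.58 in the double mutant and at 8.77, 9.04 and 8.95 in *mes-4*. They were lower in every double-mutant array, yet the double mutant stayed far above the wild-type mean of 6.61. These 4 decreases numbered 1 or 2 without *mes-4* replicate 2 or 3, and 1 without double-mutant replicate 1. Of 8 DRM subunit genes only *lin-54* itself was called, and of 5 *mes* and H3K36 genes only *mes-4*.

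Most cell cycle and replication genes were not called. Of 68 mitosis and cell cycle genes, 9 fell (13.2%, against 5.36% of all genes tested), 1 rose and 58 were not called, with a median change of −0.19. Transcripts of *cdk-1*, which encodes the mitotic cyclin-dependent kinase, were at 11.23, 11.21 and 11.18 in the double mutant and at 11.55, 11.67 and 11.55 in *mes-4* (−0.39, standard error 0.07, q = 0.00481). The difference was small and the arrays did not overlap. Others that fell were the cyclin B gene *cyb-3* (−0.43), the checkpoint genes *mdf-1* (−0.46) and *bub-1* (−0.41), the anaphase genes *fzy-1* (−0.34) and *emb-27* (−0.33) and the phosphatase gene *cdc-25.2* (−0.78), while the cyclin A gene *cya-1* rose by 0.39. The 9 decreases numbered 4, 3 and 4 without *mes-4* replicate 1, 2 and 3, and 5, 5 and 2 without double-mutant replicate 1, 2 and 3. Of 36 genes of DNA replication and nucleotide supply, 6 fell (16.7%) and 0 rose (limma, 11 lower and 3 higher at an unadjusted p under 0.05, and 3 called with Benjamini-Hochberg adjustment). They were the thymidylate synthase gene *tyms-1* (−1.06), the ribonucleotide reductase genes *rnr-1* (−0.43) and *rnr-2* (−0.50), the dUTPase gene *dut-1* (−0.47) and the helicase genes *mcm-4* (−0.52) and *mcm-7* (−0.31). Without wild-type replicate 3 or double-mutant replicate 2 there were 3 such calls, when any 1 of the *mes-4* replicates was left out there were 2, and without double-mutant replicate 1 there were 0. Of 39 genes of meiotic prophase and recombination, 2 rose (5.13%, against 2.41% of all genes tested) and 0 fell. At an unadjusted p under 0.05, 4 were lower and 8 higher (limma). Both genes called encode central proteins of the synaptonemal complex. Transcripts of *syp-1* were at 11.13, 10.98 and 11 in the double mutant and at 10.28, 9.76 and 10.32 in *mes-4* (0.91, standard error 0.14, q = 0.00258), and those of *syp-3* differed by 0.42 (q = 0.0284, and up to 0.0941 when an array was left out). The call of *syp-1* held in every leave-one-out fit, and that of *syp-3* ended when *mes-4* replicate 1 or 3 or any 1 of the double-mutant replicates was left out.

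P granules are RNA-rich condensates of germ cells, and many of their proteins act in small RNA pathways. Of 50 genes of these kinds, 10 fell (20%, against 5.36% of all genes tested) and 2 rose (4%, against 2.41%), with a median change of −0.15, and all 4 X-linked members fell: *meg-4* (−1.39), *meg-1* (−1.13) and *meg-3* (−1.05), which encode disordered P-granule proteins, and the microRNA Argonaute gene *alg-1* (−0.86). On the X as a whole, 11% of genes fell. Transcripts of *meg-4* were at 7.22, 7.70 and 7.65 in the double mutant and at 8.81, 8.75 and 9.17 in *mes-4* (standard error 0.17, q = 0.000940). The groups did not overlap, and the double mutant lay around the wild-type mean of 7.55. Autosomal members that fell included the nuclear Argonaute gene *hrde-1* (−0.94), *alg-2* (−0.89), the DEAD-box gene *rde-12* (−0.72) and *znfx-1* (−0.59), and those that rose were *eri-6* (0.91) and *pgl-2* (0.53). The 10 decreases numbered 6 when any 1 of the *mes-4* replicates or double-mutant replicate 1 or 3 was left out. Germline RNA regulators were called at shares near those of all genes (5.36% down and 2.41% up): 2 of 29 fell (6.9%) and 1 rose (3.45%). The Nanos gene *nos-2* (−1.12) and *gld-3* (−0.48), which acts with GLD-2 poly(A) polymerase, fell, and the CPEB gene *cpb-1*, needed for sperm formation, rose by 0.77. The calls of *nos-2* and *gld-3* both ended without *mes-4* replicate 3 or double-mutant replicate 1 or 3, and that of *gld-3* also without *mes-4* replicate 2 (q up to 0.106). Transcripts of *cpb-1* were at 8.62, 8.87 and 9.17 in the double mutant and at 8.15, 8.05 and 8.15 in *mes-4*, beside means of 8.71 in *lin-54* and 8.62 in wild type. The *mes-4* arrays held the lowest levels of this gene, but *mes-4* compared with wild type was not called (−0.50, limma, q = 0.118).

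F-box genes, which encode substrate adaptors of ubiquitin ligases, were called at shares near those of all genes (5.36% down and 2.41% up). Of 310 such genes, 17 fell (5.48%, and 11 without double-mutant replicate 1 or 3) and 8 rose (2.58%, and 5 without *mes-4* replicate 3 or double-mutant replicate 1 or 3). The smallest q among them was that of *fbxa-149* (−1.06, q = 0.000451), and the largest decrease was that of *fbxb-97* (−1.66). Of 32 G protein signalling genes, 6 fell (18.8%) and 2 rose (6.25%), and 3 of the 6 that fell are X-linked, where 11% of all genes fell. They included the X-linked regulators *rgs-9* (−1.38), *rgs-11* (−1.35) and *rgs-10* (−0.97) and the beta subunit genes *gpb-1* (−0.69, with another of its 3 probe sets at 0.09) and *gpb-2* (−0.43). The 6 decreases numbered 3 without *mes-4* replicate 2 or 3 or double-mutant replicate 1 and 1 without double-mutant replicate 3. Of 24 genes of apoptosis and corpse engulfment, 4 fell (16.7%) and 1 rose (4.17%). Transcripts of *ced-8*, which encodes a protein of phosphatidylserine exposure, were at 6.68, 6.96 and 6.84 in the double mutant and at 7.57, 7.69 and 7.95 in *mes-4* (−0.91, q = 0.00395). The caspase gene *ced-3* (−0.85, and −0.10 in its other probe set), the survival gene *ced-9* (−0.67) and *ced-10* (−0.43), a Rac GTPase gene, fell too, but their number with *ced-8* was 2 or 1 in 8 of 12 leave-one-out fits, namely those that left out wild-type replicate 1, *lin-54* replicate 2 or any 1 of the *mes-4* or double-mutant replicates. Among 17 linker and variant histone genes, *hil-3* (−0.71) and *hil-4* (−0.48), which encode H1 proteins, fell (11.8% of the list). None of 6 X-linked respiratory chain genes was called (limma, 1 higher at an unadjusted p under 0.05, and 0 called with Benjamini-Hochberg adjustment).

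**Figure D4:**
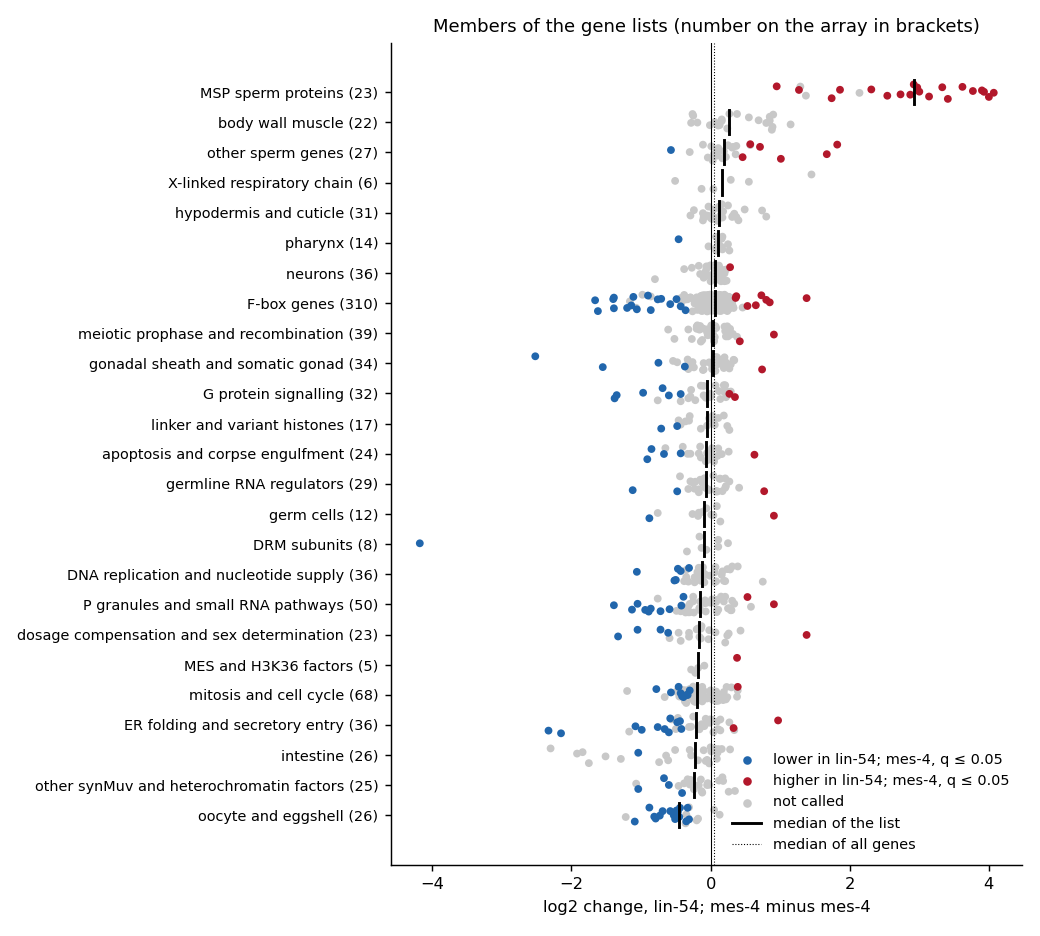
log2 change in the double mutant relative to *mes-4* (horizontal axis) of every measured member of 25 gene lists (vertical axis), with called members in colour, the median of each list as a black bar and the median of all genes (0.05) as a dotted line. MSP genes had a median of 2.92 and oocyte and eggshell genes a median of −0.46.

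Markers of tissues around the germline gave few calls. Of 34 gonadal sheath and somatic gonad genes, 4 fell (11.8%, against 5.36% of all genes tested) and 1 rose, and the median change was 0.03, with 15 of the 34 below 0. Their summed linear level was 9300, 8880 and 9060 in the double mutant and 11000, 10400 and 11100 in *mes-4*, without overlap. Without *tbh-1* and *inx-8*, an exclusion made after their values had been seen, it was 8710, 8450 and 8570 in the double mutant and 8970, 8350 and 9410 in *mes-4*, and the arrays overlapped. Transcripts of *inx-8*, which encodes an innexin of sheath gap junctions, were at 8.74, 7.64 and 8.41 in the double mutant and at 10.08, 9.95 and 9.43 in *mes-4* (−1.55, standard error 0.31, q = 0.0108), and the mean was 7.57 in *lin-54* and 10.03 in wild type. Together with *tbh-1* it fell most in this list, *ina-1* (−0.75) and *fos-1* (−0.37) fell less, and *mig-6*, which encodes papilin, rose by 0.74 in its most significant probe set and by as little as 0.10 in another. The sheath decreases numbered 2 without *mes-4* replicate 3 or double-mutant replicate 1 or 3. The part of sheath RNA in other differences was not tested. Of 26 intestine genes only *lys-4* (−1.04, q = 0.0320, and up to 0.0966 when an array was left out) was called, and its call ended without *mes-4* replicate 1 or 2 or any 1 of the double-mutant replicates. The yolk protein genes *vit-1* (−2.30), *vit-4* (−1.92) and *vit-6* (−1.84) were not called. Of 36 neuronal genes only *flp-5* (0.28) was called, of 14 pharynx genes only *tni-4* (−0.46), both calls that ended when any 1 of the 6 arrays compared was left out, and of 31 hypodermal genes none (limma, 3 higher at an unadjusted p under 0.05, and 0 called with Benjamini-Hochberg adjustment). The median level of 12 germ cell markers was 10.98, 10.62 and 11.01 in the double mutant and 10.85, 10.68 and 10.69 in *mes-4*, far above the array medians in all 6 arrays.

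Loss of LIN-54 with MES-4 present, *lin-54* compared with wild type, shares no array with the comparison above. There, 593 genes (3.47%) were down-regulated and 441 (2.58%) up-regulated. Of the 258 X-linked genes that fell in the double mutant, 78 (30.2%) also fell in *lin-54* compared with wild type, and they made up 77.2% of the X-linked genes that fell there. For the 258 genes that fell, the sign was the same in 237 (91.9%), a share that was not set beside that of all X-linked genes. Their median was −0.87 in the double mutant relative to *mes-4* and −0.46 in *lin-54* compared with wild type. The first comparison chose these genes, which enlarges its median, so the medians do not show a larger effect without MES-4. On the autosomes, 302 of 657 genes that fell (46.0%) fell in both comparisons, which was 61.4% of the 492 that fell in *lin-54*, and 156 of 395 genes that rose (39.5%) rose in both, which was 39.4% of the 396 that rose in *lin-54*. Only 2 autosomal genes fell in the double mutant and rose in *lin-54*, and no gene did the reverse. A gene called in one comparison only is not thereby shown to respond differently, since that difference has its own test.

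The effect of losing LIN-54 differed between germlines without and with MES-4 for 6 genes (0.0351% of those tested; limma interaction contrast, q ≤ 0.05). At an unadjusted p under 0.05 there were 879 of the 17085 genes tested. That share is close to the threshold itself, so this count does not point to genes beyond the 6. With the replicate number as a block in the model, 1 gene was called, *F57A10.4* (q = 0.00111), and the q values of the other 5 were 0.0677 to 0.068. All 6 are autosomal, and apart from *fipr-17* they were singled out after their values had been seen. The call of *F57A10.4*, on chromosome V, held in all 12 leave-one-out fits (q up to 0.00423). Its transcripts were at 10.25, 10.35 and 10.38 in the double mutant and at 7.63, 7.82 and 7.64 in *mes-4* (2.63, standard error 0.10), whereas the means were 10.22 in *lin-54* and 9.51 in wild type. The *mes-4* arrays thus stood alone at a low level, and the effects of losing LIN-54 differed by 1.92 (standard error 0.14, q = 0.000508). Transcripts of *dpy-31*, which encodes an astacin metalloprotease of collagen processing, were at 8.29, 8.23 and 8.37 in the double mutant and at 6.05, 6.10 and 6.14 in *mes-4*, with means of 6.77 in *lin-54* and 6.28 in wild type (difference of effects 1.71, q = 0.0349). Those of *F23H12.3* were at 7.26, 7.93 and 7.88 in the double mutant and at 5.67, 5.63 and 5.47 in *mes-4*, with means of 5.97 in *lin-54* and 5.57 in wild type (1.70, q = 0.0318). In both genes the double mutant was higher than all other arrays. Transcripts of *C18D4.6* were lower in the double mutant (7.05, 6.96 and 7.43) than in *mes-4* (7.98, 8.34 and 8.60), while *lin-54*, with a mean of 5.90, lay above wild type, with a mean of 5.31 (−1.75, q = 0.0318). Those of *F13A2.4* were at 7.08, 7.10 and 7.18 in the double mutant and at 8.72, 8.93 and 8.65 in *mes-4*, with means of 6.84 in *lin-54* and 7.45 in wild type (−1.04, q = 0.0318). The calls of *dpy-31*, *fipr-17*, *F23H12.3*, *C18D4.6* and *F13A2.4* held in 3 of 12 leave-one-out fits each (q up to 0.123), and the number of genes called was 23 without *mes-4* replicate 1, 11 without *mes-4* replicate 3, and 3 or fewer when any 1 of the wild-type or *lin-54* replicates, *mes-4* replicate 2 or double-mutant replicate 2 or 3 was left out.

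**Figure D5:**
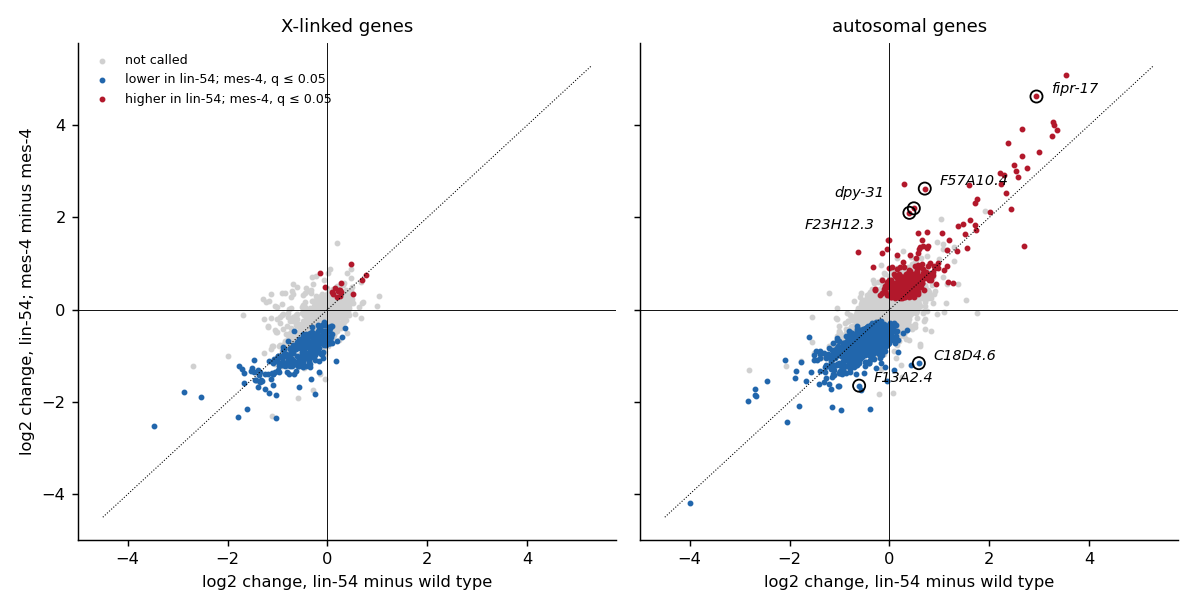
log2 change in the double mutant relative to *mes-4* (vertical axis) and in *lin-54* compared with wild type (horizontal axis) for X-linked (left) and autosomal genes (right). Points are genes, coloured by their call in the double mutant relative to *mes-4*, the dotted line marks equal changes, and circles mark the 6 genes whose changes differed at q ≤ 0.05, all autosomal.

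Levels in all 4 genotypes place the called genes. For the 258 X-linked genes that fell, the median log2 level was 6.50 in the double mutant, 7.40 in *mes-4*, 6.08 in *lin-54* and 6.58 in wild type. The median change was −0.87 in the double mutant relative to *mes-4*, −0.08 in the double mutant relative to wild type and 0.79 in *mes-4* compared with wild type. These comparisons share arrays with the one that chose the genes, so the values are a description. For the 657 autosomal genes that fell, the median level was 7.24 in the double mutant, 8.11 in *mes-4*, 6.94 in *lin-54* and 7.66 in wild type. For the 395 that rose it was 9.34 in the double mutant, 8.57 in *mes-4*, 9.45 in *lin-54* and 9.05 in wild type. Named genes followed different orders. The double-mutant mean of *pdi-2* (7.55) lay below wild type (8.86), and the same held for *tbh-1* (7.45 and 9.80). That of *F35H10.10* (6.45) lay between *mes-4* (8.62) and wild type (6.24).

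Genes were also compared with their neighbours on the chromosome. An immediate measured neighbour on the X had also fallen for 56 of the 258 genes (21.7%) and for 20.6% of the X-linked genes that had not fallen. On the autosomes the shares were 16.9% of the genes that fell and 8.31% of those that did not, and 10.6% of the genes that rose and 5.09% of those that did not. The longest runs of neighbours that fell had 5 genes. On the X they were *dgk-2* (−1.18), a diacylglycerol kinase gene, *rhi-1* (−1.63), *spr-3* (−0.60), *tmyb-1* (−0.92) and *pdi-2* (−2.15). On chromosome V they were *T10C6.7* (−0.95), *hpo-42* (−1.57), *T10C6.9* (−0.49), *T10C6.10* (−0.76) and the histone gene *his-4* (−0.36). A further X-linked run, *R04D3.2* (−1.72), *R04D3.4* (−1.67) and *R04D3.3* (−1.53), was read by probe sets that are shared between transcripts or genes, so its 3 members may not be separate measurements.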

How the data were processed

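The deposited values are log2 levels: the authors processed 12 Affymetrix arrays with the robust multichip average, which includes quantile normalization (R package affy, version not given in the sources used here), and the values were not normalized again. Background correction and scan batches could not be re-examined from them. Of 22548 probe sets, beside 77 controls, 20766 were annotated to 1 gene, 887 to several and 895 to none. Of the 20766, 20701 matched a *C. elegans* gene of RefSeq (WBcel235), which gave names, chromosomes and neighbours for 17085 genes.

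All 12 arrays entered 1 linear model (limma 3.58.1, R 4.3.3) that gave each genotype its own mean, and the contrast of the double mutant with *mes-4* was tested. Storey q-values were computed over all non-control probe sets (lambda 0 to 0.9 in steps of 0.05, smoothing spline with 3 degrees of freedom). Genes were represented by their most significant probe set and called at q ≤ 0.05. Counts of list members at an unadjusted p under 0.05 were not set beside the share of all genes at that p. For list levels, probe sets were averaged per gene and the median of the genes was taken. Per-array X-linked and autosomal medians were compared by an exact permutation test. The model was tested on simulated data. Named genes were the 6 largest changes in each direction on the X and on autosomes without overlap of arrays, both mutated genes and up to 3 called members per list. The comparison, lists and named genes were chosen with earlier results of these data known. Alternatives concerned the arrays in the model, adjustment, shared and dim probe sets, centring, prior variance, the value of a gene, the replicate number and each array in turn.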

Additional observations from a re-analysis of the deposited data

Results flagged for a closer look

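The effect of losing LIN-54 differed between germlines without and with MES-4 for 6 genes, tested as the interaction contrast in limma (q ≤ 0.05). The difference, as the effect without MES-4 minus the effect with MES-4 on the log2 scale, was 1.92 for *F57A10.4* (standard error 0.14, q = 0.000508). It was 1.71 for *dpy-31*, 1.68 for *fipr-17* and 1.70 for *F23H12.3*. It was −1.75 for *C18D4.6* and −1.04 for *F13A2.4*. The standard errors of these 5 were 0.13 to 0.23 and their q values 0.0318 to 0.0349, and with the replicate number as a block none of these 5 was called (limma, q of 0.0677 to 0.068). All 3 double-mutant arrays lay on the same side of all 3 *mes-4* arrays in each of the 6 genes. The groups of 3 arrays are too small to test for single outlying arrays.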

How the results depend on the processing

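No result reversed under any alternative. With only the 6 arrays compared in the model, 150 X-linked genes fell and 3 rose, and 398 autosomal genes fell and 165 rose. Without probe sets shared between transcripts or genes, where fewer genes were tested, 166 X-linked genes fell and 9 rose, 381 autosomal genes fell and 247 rose, and the X-linked minus autosomal difference was −0.037. X-linked increases numbered 10 with Benjamini-Hochberg adjustment and 8 with arrays centred on the autosomal median, where autosomal increases numbered 261. That difference was −0.199 with probe sets above the median level and −0.141 as a mean over genes. Leaving out 1 array gave 120 to 293 X-linked decreases, 4 to 18 X-linked increases, 333 to 742 autosomal decreases, 176 to 478 autosomal increases, 1 to 23 interaction genes and differences of −0.08 to −0.063. Interaction genes numbered 11 with probe sets averaged per gene. With the replicate number as a block they numbered 1, and 268 X-linked genes fell and 18 rose while 750 autosomal genes fell and 486 rose. Deviations of double-mutant and *mes-4* arrays with the same number correlated at 0.504, 0.109 and 0.049, and those with different numbers at −0.450 to 0.315. The main model did not use the replicate number, and whether it marks a batch was not tested. For arrays with the same number, the correlations were 0.251, 0.367 and 0.148 between the double mutant and *lin-54*, and 0.116, 0.245 and 0.263 between *mes-4* and wild type. They were −0.091 to 0.312 in the other pairs of genotypes. In all pairs other than the double mutant with *mes-4*, arrays with different numbers correlated at −0.352 to 0.155. Of 1620 values of named genes under the alternatives, 174 lost the threshold, and of 112 interaction values, 53 did. The cause of these losses was not tested. The 3 arrays per genotype limit precision, and signal over background was not measured.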

Other observations

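Gene families that were picked after the values had been seen add to the description. Of 254 nuclear hormone receptor genes, a family of transcription factors, 30 fell (11.8%, against 5.36% of all genes tested) and 1 rose. Only 6 of the 30 are X-linked, and the median of the family was 0.01, beside 0.05 over all genes. Transcripts of *nhr-3* were at 5.14, 5.64 and 4.89 in the double mutant and at 6.33, 7.0 and 6.85 in *mes-4* (−1.50, standard error 0.23, q = 0.00271), with no overlap, and its other probe set differed by −0.42. The 30 decreases numbered 12 to 32 when an array was left out, and the count changed by more than 1.5 times without *mes-4* replicate 3 or double-mutant replicate 1 or 3. Of 21 innexin genes, which encode gap junction proteins, 6 fell (28.6%, against 5.36% of all genes tested) and 1 rose (4.76%), and 3 of the 6 are X-linked, where 11% of all genes fell. The decreases numbered 1 to 8 when an array was left out, changing by more than 1.5 times without those same 3 arrays. Of 56 mitochondrial ribosomal protein genes 8 rose (14.3%), of 13 cytochrome c oxidase genes 4 rose (30.8%) and of 7 genes of Sm proteins, which act in splicing, 4 rose (57.1%), against 2.41% of all genes tested. Median changes of these families, which were not tested as groups, were 0.20, 0.29 and 0.38. When an array was left out, the counts were 1 to 14, 2 to 3 and 2 to 4, and they changed by more than 1.5 times in each family without *mes-4* replicate 3 or double-mutant replicate 1, in both mitochondrial groups also without *mes-4* replicate 1 or double-mutant replicate 2 or 3, and for cytochrome c oxidase also without wild-type replicate 1 or 3 or *lin-54* replicate 2 or 3.

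Single genes outside the lists covered membrane traffic and metabolism. Transcripts of *acly-1*, an X-linked ATP citrate lyase gene, were at 6.57, 6.72 and 6.89 in the double mutant and at 8.48, 8.58 and 8.16 in *mes-4* (−1.68, standard error 0.15, q = 0.000163), a call that held in all leave-one-out fits. The X-linked genes *dyn-1* (−1.17), which encodes dynamin, *vha-12* (−1.13), which encodes a subunit of the vacuolar proton pump, and *nrde-3* (−1.01), which encodes a nuclear Argonaute, also fell. Each of these calls ended without double-mutant replicate 1 or 3, that of *vha-12* also without *mes-4* replicate 3, and that of *nrde-3* also without *mes-4* replicate 2 or 3 (q up to 0.0660, 0.0803 and 0.0965). Transcripts of the autosomal gene *strm-1*, which encodes a sterol methyltransferase, were at 6.2, 6.68 and 6.54 in the double mutant and at 4.49, 4.47 and 4.64 in *mes-4* (1.94, standard error 0.17, q = 0.000187), with means of 7.50 in *lin-54* and 5.89 in wild type. The double-mutant mean thus lay above those of *mes-4* and wild type and below that of *lin-54*, but double-mutant and wild-type arrays overlapped (0.58, q = 0.0855).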
